A study of Mus musculus with 4 samples.

Results

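The pyruvate dehydrogenase complex, its regulatory enzymes and the mitochondrial pyruvate carrier were examined as mRNAs in fractions of the mouse heart. The 10 genes were chosen by name, by a rule that uses none of their values but made with earlier results of these data known, as listed subunits (Pdha1, Pdhb, Dlat, Pdhx), kinases (Pdk1, Pdk2, Pdk4), a phosphatase subunit (Pdp1) and carrier subunits (Mpc1, Mpc2). All 10 were among the 15746 genes of the deposited table, and all 10 passed the filter (10 or more normalized counts in 2 or more libraries), which left 12150 genes for testing. RNA had been sequenced from isolated mitochondria and from the remaining material, called the rest fraction, of hearts of adult mice (2 libraries per fraction). The labels give the wild-type genotype for all 4 libraries and name no treatment of the animals, and the sources used here tie no strain, age or sex and no number of hearts to these libraries. The rest fraction was the pellet of cell debris left by a low-speed spin of the homogenate, and the mitochondria were collected from its supernatant at higher speed. Digitonin, a detergent, and RNase A were applied to the isolated mitochondria, and RNA fragmentation was shortened for mitochondrial samples, so that these steps cannot be told apart from the fraction. Nothing in the labels says that the libraries of a fraction came from separate animals, and p-values therefore measure only the spread between these libraries.

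Pyruvate made by glycolysis enters the mitochondrial matrix through a carrier built from the Mpc1 and Mpc2 proteins. There the pyruvate dehydrogenase complex converts it to acetyl-CoA in 3 catalytic steps, performed by E1 (a tetramer of the Pdha1 and Pdhb products), E2 (Dlat) and E3 (Dld), with Pdhx holding E3 to the E2 core. Kinases of the Pdk family switch E1 off by phosphorylation and the phosphatases Pdp1 and Pdp2 switch it on again, a control point for the choice between glucose and fatty acids in the heart. All these proteins are encoded in the nucleus, translated in the cytosol and imported, so that the values given here describe nuclear-encoded mRNAs recovered with each fraction and not the amount of protein or the activity of the complex.

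The kinases are relatives, and the counting of reads for each of them rests on how far their sequences differ. To show this, the stretch of 60 coding bases with the most positions shared by all 4 kinase mRNAs is printed 5′ to 3′ from the transcripts of GENCODE M21 (GRCm38). Capitals mark the 20 positions at which at least 1 of the 4 differs, and the other 40 are the same in all.
Pdk1, coding bases 1049 to 1108: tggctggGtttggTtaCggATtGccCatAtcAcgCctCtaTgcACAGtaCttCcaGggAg
Pdk2, coding bases 968 to 1027: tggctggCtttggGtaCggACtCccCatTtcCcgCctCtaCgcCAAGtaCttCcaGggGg
Pdk3, coding bases 962 to 1021: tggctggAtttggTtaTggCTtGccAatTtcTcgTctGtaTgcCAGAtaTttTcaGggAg
Pdk4, coding bases 980 to 1039: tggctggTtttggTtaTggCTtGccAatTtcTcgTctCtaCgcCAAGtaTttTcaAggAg
Over the aligned coding sequences, any 2 of the 4 kinases were identical at between 64.3% and 66.9% of positions. Their longest identical run was 29 bases, shared by Pdk3 and Pdk4, which is shorter than the 75-base reads. A full-length read from the coding part of 1 kinase thus held differences from the other kinases. This comparison leaves out the parts after the coding sequence and genes other than kinases. There, Pdk4 matches many other genes between bases 2848 and 2970 of its transcript, such as Lpl over 123 bases at 96.7% identity. Pdk1 has shorter matches, such as Tnip3 over 70 bases at 95.7%. Reads of these parts may have been left out, which was not tested.

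For the coding part, the pyruvate carrier gene Mpc1 is the opposite case. Its coding sequence of 330 bases has a near copy in the processed pseudogene Mpc1-ps on chromosome 12 (110858565 to 110858894, minus strand, GRCm38), which the table lists as a gene of its own. The first 90 bases of both are printed because they hold the only difference, in capitals at position 41 counted from the A of the start codon (G41A, with the base of Mpc1 first).
Mpc1: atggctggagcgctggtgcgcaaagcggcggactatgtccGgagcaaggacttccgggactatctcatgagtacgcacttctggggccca
Mpc1-ps: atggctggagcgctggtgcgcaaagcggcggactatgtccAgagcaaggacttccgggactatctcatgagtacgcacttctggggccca
The remaining 289 bases, from position 42 to 330, are identical, and the authors excluded reads that aligned to more than 1 place. Reads that lie wholly in the identical bases may therefore have been left out or given to either gene. No single reads were inspected, and the division of reads between both genes is uncertain. Another processed pseudogene, Gm8219, matches Mpc1 over 242 bases at 95.9% identity and is not among the listed genes. Pdhb also has a processed pseudogene, Gm6123 on chromosome 1 (4771131 to 4772199, plus strand), which matches it over 1079 bases at 97.0% identity.

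Normalized counts are read counts of a gene scaled by the size factor of the library. Approximately 47400000 and 32100000 reads lay on genes in mitochondrial replicates 1 and 2, and 26300000 and 23500000 in rest replicates 1 and 2, as read from the spacing of the values. Because transcripts of the mitochondrial chromosome took 97.6% and 93.5% of the mitochondrial libraries against 63.2% and 67.5% of the rest libraries, the nuclear genes were read less deeply in mitochondria. The 10 genes were covered by about 38 to 728 reads in mitochondrial replicate 1 and 49 to 966 in replicate 2, against 341 to 5855 and 287 to 4332 in the rest libraries. For Pdp1, the lowest in the mitochondrial libraries, the counting error alone was 16.2% and 14.3% there. For Pdha1, the highest, it was 3.71% and 3.22%. These errors treat reads as independent and leave out PCR copies.

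Of the 10 genes, only Mpc2 passed the test between the fractions (limma on log2 of the normalized count plus 1, Benjamini-Hochberg adjustment over all 12150 genes, threshold 0.05). It was higher in mitochondria, and 0 members were lower by this test. Among all tested genes, 2.16% were called higher and 1.39% lower. At an unadjusted p under 0.05, 6 of the 10 were higher and 0 lower, against 14.1% of all tested genes higher. Both mitochondrial values lay above both rest values for 7 of the 10, against 27.7% of all tested genes. All 10 had a positive log2 fold change on the deposited scale, as did 43.8% of tested genes. Their median was 0.68 beside -0.14 over all tested genes. Dld, the kinase Pdk3 and the phosphatase subunits Pdp2 and Pdpr belong to the same classes but are not among the 10. Their log2 fold changes were 0.46, -1.01, -0.26 and -0.42. The upper quartile of all tested genes, 0.49, was exceeded by 8 of the 10, with Pdp1 and Dlat below it. The genes share a function and are not independent of each other, and a p that misses the threshold with 2 libraries in each fraction does not show that a gene was equal between the fractions.

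The sign of these differences depends on the scale. With the libraries scaled to their total without the mitochondrial chromosome, the median of all tested genes moved from -0.14 to -0.98 and only Mpc2 (0.53), Mpc1 (0.21) and Pdhb (0.07) stayed positive, with 0 members called in either direction by limma and 0 at an unadjusted p under 0.05. Scaled to the whole library total, the median of all genes was -3.93, and all 10 members were called lower, as were 98.9% of all tested genes. A change of scale moves all genes of a library by nearly the same amount, so the distance to the median gene is almost fixed by construction. Each of the 10 lay above that gene, by 0.37 to 1.53 on the deposited scale, 0.34 to 1.5 without the mitochondrial chromosome and 0.18 to 1.34 on the library total. Summed, the 10 genes took 0.165% and 0.127% of the normalized counts of nuclear genes in mitochondria and 0.162% and 0.160% in the rest fraction, so the mitochondrial libraries lay on both sides of the rest libraries on that scale. Levels and fold changes below are on the deposited scale unless another is named, and "higher" is to be read relative to the size factors.

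**Figure D1:**
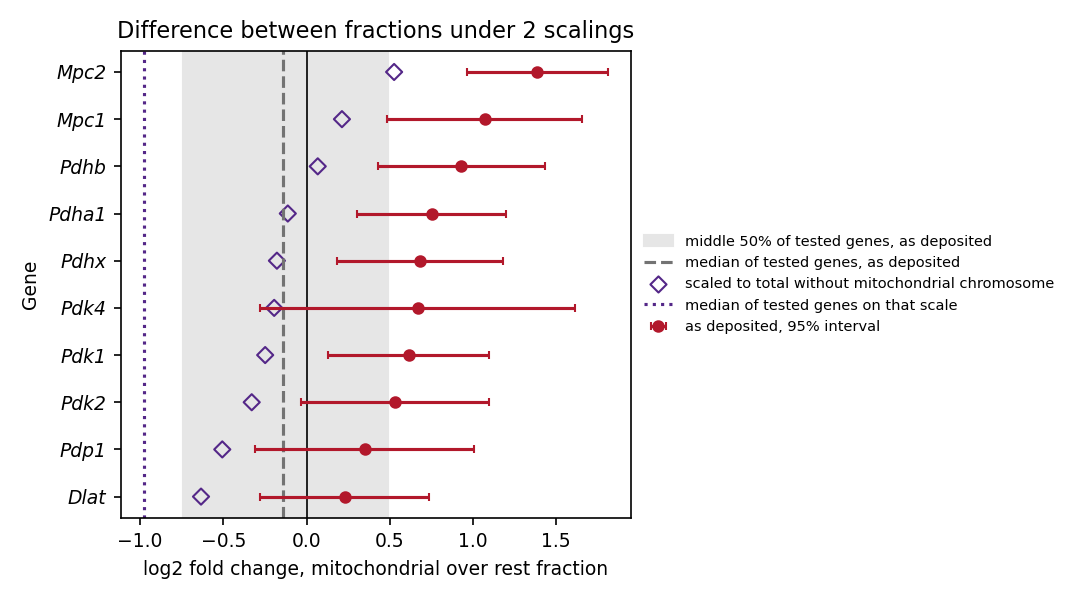
log2 fold change of each gene, mitochondrial over rest fraction (x axis), as deposited with 95% intervals from limma (filled circles, n = 2 libraries in each fraction) and scaled to the total without the mitochondrial chromosome (open diamonds). Filled circles are all right of 0 and right of the median of tested genes (-0.14, dashed), whereas 7 open diamonds are left of 0 but right of their own median (-0.98, dotted).

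E1 is the entry to the complex, and its 2 genes were among the more abundant. Pdha1 (chromosome X, 160122209 to 160138413, minus strand, GRCm38), the catalytic alpha subunit that the kinases phosphorylate, had 2820 and 2464 normalized counts in mitochondria and 1547 and 1583 in the rest fraction. Both mitochondrial libraries were above both rest libraries, with means of 2642 ± 252 and 1565 ± 25.5 (SD, n = 2 each). The log2 fold change was 0.75 (SE 0.17, 95% interval 0.30 to 1.20, limma adjusted p = 0.0708), short of the threshold. Pdha1 alone made up 35.5% to 38.3% of the summed normalized counts of the 10 genes in each library. Its exons share 603 bases with Map3k15 on the opposite strand, which had 5 to 8 normalized counts in each library. Use of strand in counting is not given, so reads of the shared bases may have been left out for both genes. Pdhb (chromosome 14, 8165996 to 8173025, minus strand), the beta subunit of E1, had 782 and 612 normalized counts in mitochondria and 364 and 361 in the rest fraction. Here too the fractions did not overlap, and the log2 fold change was 0.93 (SE 0.19, 95% interval 0.43 to 1.43, limma adjusted p = 0.0638). With the counts of the pseudogene Gm6123 added, which were 105 and 82 in mitochondria and 41 and 44 in the rest fraction, the log2 fold change was 0.95 (limma adjusted p = 0.0622).

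The core subunits Dlat and Pdhx did not pass the test. Dlat (chromosome 9, 50634633 to 50659780, minus strand), the E2 acetyltransferase that forms the core of the complex, had 717 and 582 normalized counts in mitochondria and 512 and 593 in the rest fraction. The fractions overlapped, since mitochondrial replicate 2 was below rest replicate 2, and Dlat had the smallest log2 fold change of the 10 genes (0.23, SE 0.19, 95% interval -0.28 to 0.74, limma adjusted p = 0.462). Pdhx (chromosome 2, 103021075 to 103073513, minus strand), which tethers E3, had 314 and 258 normalized counts in mitochondria against 172 and 182 in the rest fraction. These did not overlap, with a log2 fold change of 0.68 (SE 0.19, 95% interval 0.18 to 1.18, limma adjusted p = 0.101). Dld, the E3 dehydrogenase that the complex shares with other 2-oxoacid dehydrogenases, had 922 and 842 normalized counts in mitochondria and 606 and 678 in the rest fraction (log2 fold change 0.46, SE 0.17, limma adjusted p = 0.153).

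**Figure D2:**
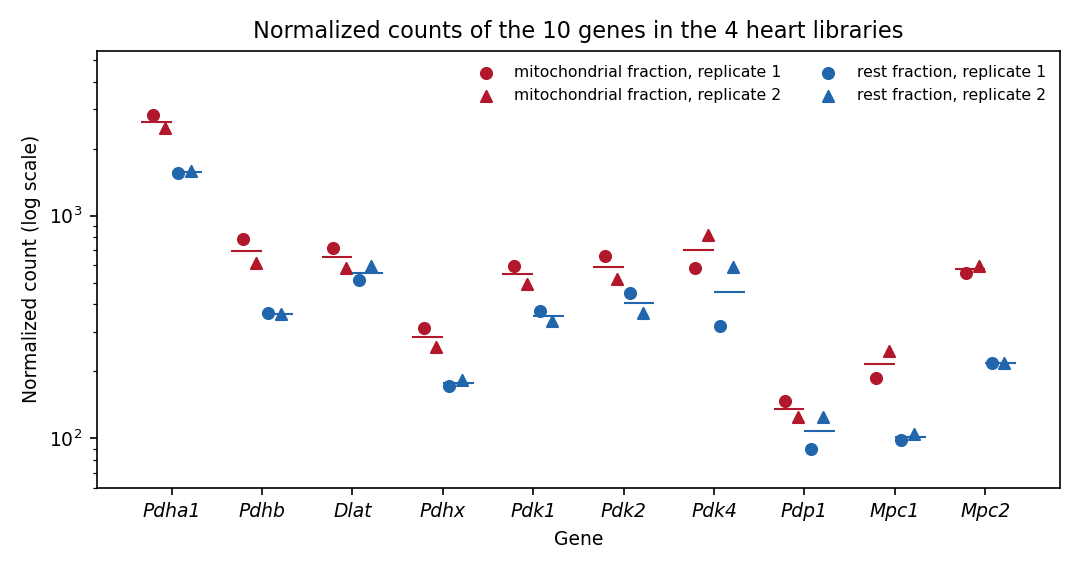
Normalized count (y axis, log scale) of the 10 genes in the 4 libraries, with mitochondrial libraries in red, rest libraries in blue and a short line at the mean of each fraction (n = 2). The red symbols lie above the blue ones for 7 genes. They overlap for Dlat and Pdk4 and meet at 125 for Pdp1.

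Ratios between genes within a library do not depend on its scaling. Divided by the length of the principal transcript, the Pdha1 level was 1.92 and 2.14 times the Pdhb level in the mitochondrial libraries. In the rest libraries it was 2.26 and 2.33 times the Pdhb level. The proteins join in equal number in E1, but the size of this mRNA ratio is uncertain. It leaves out the counts of the pseudogene Gm6123, and the longest annotated Pdhb transcript has 2377 bases against 1513 for the principal one. The ratio of Dlat to Pdhx was 1.42 and 1.40 in mitochondria and 1.85 and 2.02 in the rest fraction. The ratio of Pdha1 to Dlat was 5.57 and 6.0 in mitochondria and 4.28 and 3.78 in the rest fraction. For all 3 ratios the values of the fractions did not overlap, and the Pdha1 and Pdhx mRNAs were thus higher relative to Dlat in the mitochondrial libraries on any scale. The ratios are given as a description: an exact two-sided permutation test of 2 libraries against 2 cannot give a p below 0.333, and no other test of them was run.

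Of the 3 kinases, 0 passed the test, and Pdk2 had the highest mean level per length of the principal transcript in both fractions. Pdk2 (chromosome 11, 95026258 to 95041354, minus strand), the widely expressed kinase, had 662 and 518 normalized counts in mitochondria and 449 and 364 in the rest fraction (log2 fold change 0.53, SE 0.22, 95% interval -0.03 to 1.10, limma adjusted p = 0.180). Pdk1 (chromosome 2, 71873224 to 71903858, plus strand), a target of the hypoxia response, had 596 and 495 in mitochondria and 374 and 336 in the rest fraction (log2 fold change 0.61, SE 0.18, 95% interval 0.13 to 1.10, limma adjusted p = 0.113). For both genes the mitochondrial libraries were above the rest libraries. Pdk4 (chromosome 6, 5483351 to 5496309, minus strand), the kinase induced by fasting and fatty acids, had 585 and 821 in mitochondria and 321 and 591 in the rest fraction. Its fractions overlapped, and its log2 fold change of 0.67 had the widest interval of the 10 genes (SE 0.36, 95% interval -0.28 to 1.61, limma adjusted p = 0.280).

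The wide interval of Pdk4 followed from the replicates. Replicate 2 was 1.40 times replicate 1 in mitochondria and 1.84 times in the rest fraction. Of the other 9 genes, 7 were lower in mitochondrial replicate 2 than in replicate 1, and their ratios in the rest fraction ran from 0.811 to 1.39. A ratio at least as high as that of Pdk4 in both fractions was found for 156 of the 11306 tested genes above 0 in all 4 libraries (1.38%). When the model held the replicate number as a block, the SE of Pdk4 was 0.20 (95% interval 0.16 to 1.17) and its adjusted p in limma was 0.101. Whether replicates of the same number share animals is not given in the sources used here.

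The mixture of kinase mRNAs differed more between replicate numbers than between fractions. Per length of the longest annotated transcript, Pdk2 made up 51.0% and 41.1% of the sum of Pdk1, Pdk2 and Pdk4 in mitochondria and 54.9% and 40.9% in the rest fraction. Pdk4 made up 29.1% and 41.9% in mitochondria and 25.3% and 42.8% in the rest fraction, and Pdk1 between 16.3% and 19.9% in all 4 libraries. In replicate 2 of both fractions Pdk4 was thus slightly above Pdk2, and in replicate 1 Pdk2 was well above Pdk4. The order depends on the gene length used: per length of the union of all exons, the mean shares in mitochondria were 43.8% for Pdk4 and 40.9% for Pdk2, and in the rest fraction 42.0% and 42.8%. The mean shares of the fractions differed by 1.47 percentage points for Pdk4, -1.84 for Pdk2 and 0.37 for Pdk1, each less than the SD between replicates (9.11 and 12.4 points for Pdk4 in mitochondria and the rest fraction). The fourth kinase, Pdk3, was near the limit of the data with 0 and 15 normalized counts in mitochondria, where 3 reads give 11.6 and 7.65, and with 4 and 12 in the rest fraction (limma adjusted p = 0.679).

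**Figure D3:**
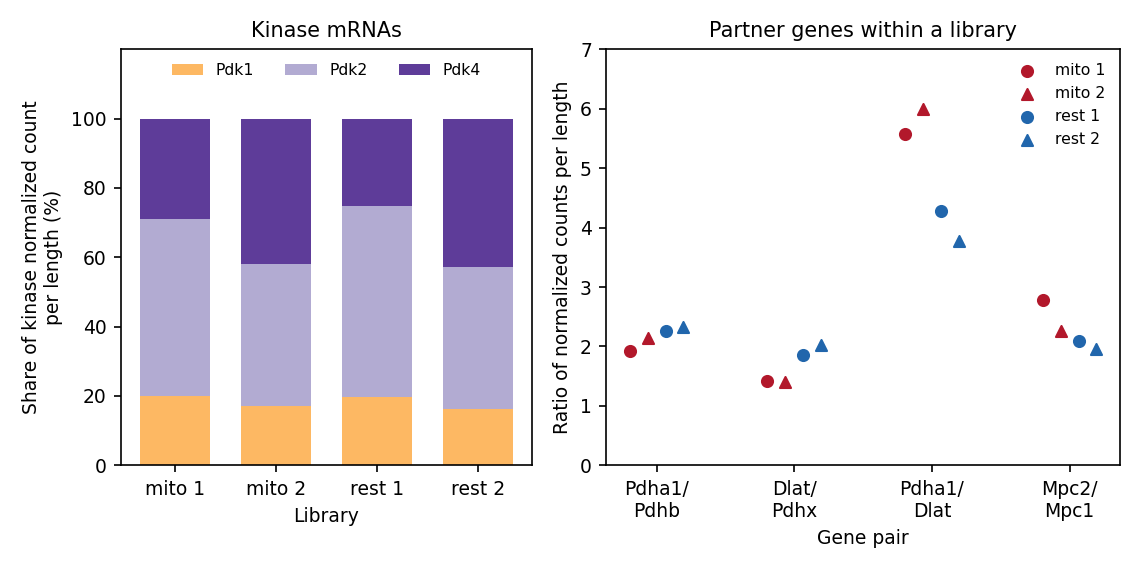
Left, share (%) of Pdk1, Pdk2 and Pdk4 in their summed normalized count per length of the longest annotated transcript in each library (mito, mitochondrial fraction). Right, ratio of normalized counts per length of the principal transcript for 4 pairs of genes, with 1 symbol for each library. Pdk4 takes 41.9% and 42.8% in replicate 2 and 29.1% and 25.3% in replicate 1 of both fractions, and the ratio Pdha1/Dlat is 5.57 and 6.0 in mitochondria against 4.28 and 3.78 in the rest fraction.

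Pdp1 had the lowest level per length of the 10 genes in both fractions. Pdp1 (chromosome 4, 11958184 to 11966452, minus strand), the calcium-activated catalytic subunit, had 147 and 125 normalized counts in mitochondria and 90 and 125 in the rest fraction (log2 fold change 0.35, SE 0.25, 95% interval -0.31 to 1.01, limma adjusted p = 0.393). Its fractions met at 125. Pdp2, the other catalytic subunit, had 74 and 46 in mitochondria and 64 and 77 in the rest fraction (log2 fold change -0.26, limma adjusted p = 0.609). The regulatory subunit Pdpr had 267 and 151 in mitochondria and 275 and 262 in the rest fraction (log2 fold change -0.42, limma adjusted p = 0.414). Neither Pdp2 nor Pdpr shared the positive sign of the 10 genes. Summed per length, the mRNAs of the 3 kinases were 12.0 and 14.8 times those of Pdp1 and Pdp2 in mitochondria and 11.2 and 9.16 times in the rest fraction, so kinase mRNA exceeded phosphatase mRNA in each library.

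The carrier genes had the largest estimated differences of the 10, although the interval of Mpc1 overlapped those of all other members and that of Mpc2 those of all but Dlat. Mpc2 (chromosome 1, 165460637 to 165481214, plus strand) had 554 and 597 normalized counts in mitochondria and 219 in each rest library. Its mean was 2.63 times as high in mitochondria, with a log2 fold change of 1.39 (SE 0.16, 95% interval 0.97 to 1.81, limma adjusted p = 0.0427). The value of 1.39 was higher than that of 94.1% of tested genes. Mpc2 was no longer called when any 1 library was left out (log2 fold change 1.34 to 1.44), when 0.1 was added in place of 1 (limma adjusted p = 0.0543), or on the scale without the mitochondrial chromosome (limma adjusted p = 0.144). With 1 library left out, limma called 0 genes in the whole table.

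Mpc1 (chromosome 17, 8282904 to 8297661, plus strand) had 186 and 247 normalized counts in mitochondria and 98 and 105 in the rest fraction. The libraries of the fractions did not overlap (log2 fold change 1.07, SE 0.22, 95% interval 0.49 to 1.66, limma adjusted p = 0.0642). The pseudogene Mpc1-ps, whose sequence is that of the Mpc1 coding region but for G41A, had 275 and 204 in mitochondria and 80 and 69 in the rest fraction (log2 fold change 1.66, SE 0.24, limma adjusted p = 0.0469). In mitochondria Mpc1 was lower in replicate 1 and Mpc1-ps lower in replicate 2, while their sums were 461 and 451, against 178 and 174 in the rest fraction. On the sum the log2 fold change was 1.37 (SE 0.16, 95% interval 0.95 to 1.79, limma adjusted p = 0.0425), an alternative chosen after the values were seen. Mpc1-ps took 59.7% and 45.2% of the sum in mitochondria and 44.9% and 39.7% in the rest fraction. In normalized counts not divided by length, the ratio of Mpc2 to that sum was 1.20 and 1.32 in mitochondria and 1.23 and 1.26 in the rest fraction. The carrier genes thus kept nearly the same proportion in all 4 libraries once the pseudogene was counted in. Without the pseudogene, the ratio of Mpc2 to Mpc1 was taken per length of the principal transcript, so its size cannot be set directly against the ratio in counts. This ratio per length was 2.78 and 2.26 in mitochondria and 2.09 and 1.95 in the rest fraction. The exons of Mpc1 share 480 bases with 4930506C21Rik on the opposite strand, which had 0 and 3 normalized counts in mitochondria and 8 in each rest library. As for Pdha1, reads of the shared bases may have been left out.

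Per length, the 10 genes spanned a wide range in each fraction. In normalized counts per kilobase of the principal transcript, Pdha1 was highest in both (928 ± 88.4 in mitochondria, 549 ± 8.94 in the rest fraction, SD, n = 2 each). In mitochondria it was followed by Mpc2 (562 ± 29.7) and Pdhb (461 ± 79.5), and in the rest fraction by Pdhb (240 ± 1.40) and Mpc2 (214). The places of Mpc2 and Pdhb depend on the gene length used. Their longest annotated transcripts have 4015 and 2377 bases, against 1025 and 1513 for the principal ones. Pdk2 (263 ± 45.3), Mpc1 (226 ± 45.0) and Pdk4 (202 ± 47.9) came next in mitochondria, with Mpc1 within its spread of Pdk2 and Pdk4. The level of Mpc1 may leave out reads shared with its pseudogene. Dlat (161 ± 23.7) followed, within the spread of Pdk4. Pdhx (114 ± 15.8) and Pdk1 (105 ± 13.8), lower again, could not be separated, and Pdp1 (32.4 ± 3.70) was lowest. In the rest fraction Pdk2 (181 ± 26.8), Dlat (137 ± 14.2) and Pdk4 (131 ± 54.8) came next, with Pdk4 within its spread of Pdk2, Dlat and Mpc1. Mpc1 (106 ± 5.17), Pdhx (70.6 ± 2.82), Pdk1 (68.5 ± 5.18) and Pdp1 (25.6 ± 5.89) closed the order, and Pdhx and Pdk1 again did not differ beyond their spread.

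Transcript length moved with the difference between the fractions, in the genes at large as well as in these 10. Among tested nuclear protein-coding genes, the median log2 fold change was 0.83 for the 1312 genes with a principal transcript under 1500 bases, 0.08 for 3348 genes from 1500 to 3000 bases, -0.30 for 3495 genes from 3000 to 5000 bases and -0.54 for 2456 longer genes. The carrier genes are the shortest members, with 958 bases for Mpc1 and 1025 for Mpc2. The value of Mpc1 lay inside the range between the quartiles of the shortest class (0.27 to 1.32) and that of Mpc2, 1.39, just above it. Pdk1 has the longest transcript of the 10 with 5185 bases, and its 0.61 lay far above the quartile range of its class (-0.96 to -0.07). Of the 10 genes, 8 were above the upper quartile of their own length class, all but Mpc1 and Pdk2. The part that length plays in the values of the members was not tested.

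**Figure D4:**
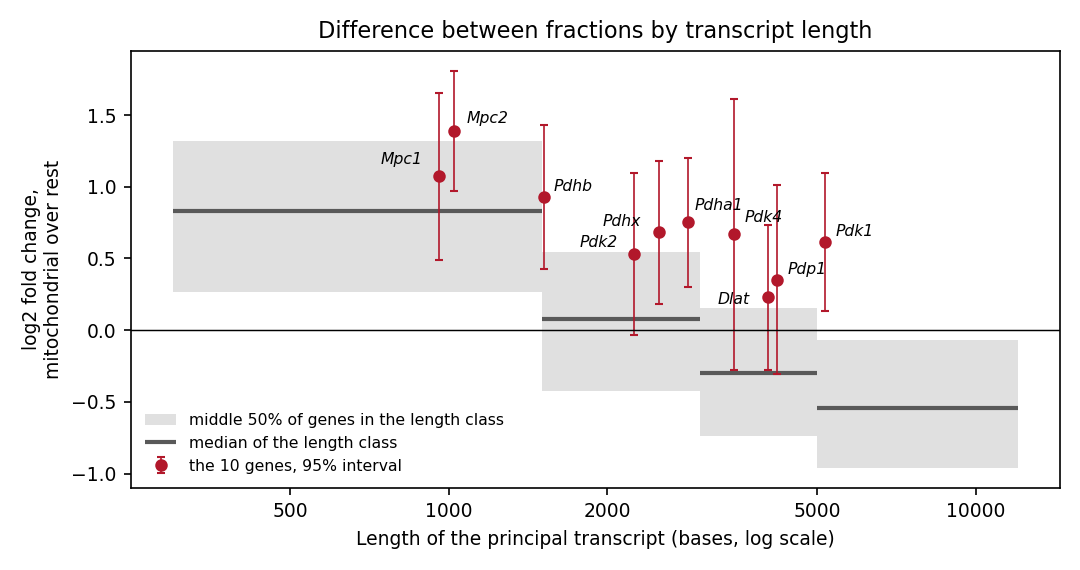
log2 fold change on the deposited scale, mitochondrial over rest fraction (y axis), against the length of the principal transcript (x axis, bases, log scale) for the 10 genes with 95% intervals from limma. Grey boxes and lines give the quartile range and the median of tested nuclear protein-coding genes in 4 length classes, with medians of 0.83, 0.08, -0.30 and -0.54 from short to long; the open ends of the first and last class are shortened for display.

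Markers of cell types and of nuclei also differed between the fractions. The summed normalized count of 7 cardiomyocyte markers, which include Myh6 and Tnnt2, was 205978 to 278797 in mitochondria and 207961 to 236604 in the rest fraction, at a level far above all other lists. These sums overlapped, but they rest on the most abundant genes: the median log2 fold change of the 7 was 0.88, with single genes from -1.35 to 1.88. The sum of 5 endothelial markers was lower in mitochondria (1293 to 1472 against 2294 to 2600), as was that of 4 globin genes of red blood cells (50 to 323 against 412 to 781), of 2 smooth muscle genes (136 to 423 against 588 to 1374) and of 3 nuclear RNAs with Malat1 (8699 to 13648 against 42937 to 45482). The sums of 5 fibroblast markers (2948 to 6949 against 1859 to 2697) and 4 macrophage markers (210 to 360 against 135 to 160) were higher, with median log2 fold changes of 0.93 and 0.88. Of 4 adipocyte markers (Adipoq, Cidec, Plin1 and Ucp1), 0 are among the listed genes, so no value can be given for them. In these bulk samples a change in the number of cells of a type and a change of RNA per cell cannot be told apart, and the part of these differences in the values of the 10 genes was not tested.

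The genes around the complex were taken from lists made by function. Of 49 genes in 5 lists, 45 were tested. Only Bola3 was called higher and 0 genes were called lower by limma against 2.16% and 1.39% of all genes. At an unadjusted p under 0.05, 9 were higher and 3 lower, against 14.1% and 16.2% of all genes, and 24 of the 45 had a positive log2 fold change, with a median of 0.05. Of the 6 partners of the complex (Dld, Pdk3, Pdp2, Pdpr and the mitochondrial sirtuins Sirt3 and Sirt4), 0 passed in either direction, 2 were positive and the median was -0.34.

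The lipoate and thiamine cofactors of E2 and E1 are supplied by a list of 10 genes, of which 7 were tested and 6 were positive (median 0.67). Bola3, which takes part in the iron-sulfur cluster step that lipoate synthesis needs, had 930 and 977 normalized counts in mitochondria and 181 and 190 in the rest fraction. The fractions did not overlap, with means differing 5.14-fold and a log2 fold change of 2.36 (SE 0.16, 95% interval 1.94 to 2.77, limma adjusted p = 0.0427).

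Genes of pyruvate and lactate handling gave 0 calls among 13 tested (7 positive, median 0.20). The ends of this list were Ldhb, the heart form of lactate dehydrogenase, with 3389 and 2181 normalized counts in mitochondria and 1381 and 1043 in the rest fraction (log2 fold change 1.18, limma adjusted p = 0.0802), and the monocarboxylate transporter Slc16a7 with 4 and 26 against 24 and 22 (log2 fold change -1.05, limma adjusted p = 0.456). The mitochondrial values of Slc16a7 rest on about 1 and 10 reads. The related 2-oxoacid dehydrogenase complexes and their kinase and phosphatase also gave 0 calls among 8 tested (5 positive, median 0.30). Their ends were Dbt, the E2 of the branched-chain complex, with 190 and 207 against 105 and 101 (log2 fold change 0.94, limma adjusted p = 0.0605), and Ogdh, the E1 of the 2-oxoglutarate complex, with 3803 and 2441 against 4298 and 3262 (log2 fold change -0.30, limma adjusted p = 0.530).

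Of 11 transcription regulators known to act on Pdk4, 0 passed in either direction, 4 were positive and the median was -0.35. Foxo1, a forkhead factor, had 39 and 33 normalized counts in mitochondria and 64 and 91 in the rest fraction. The fractions were apart (log2 fold change -1.07, SE 0.29, limma adjusted p = 0.0963), but the mitochondrial values rest on about 10 and 13 reads. Esrra, an oestrogen-related receptor, had 97 and 110 in mitochondria and 94 and 71 in the rest fraction (log2 fold change 0.33, limma adjusted p = 0.398). For the regulators, both mitochondrial libraries were below both rest libraries in 4 genes and above them in 1, against 33.4% and 27.7% of all tested genes.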

How the data were processed

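RNA-seq of mitochondrial and rest fractions of mouse heart was used (2 libraries each, grouped by the labels). The authors trimmed reads with Trimmomatic, aligned them to GRCm38 with STAR, counted reads over exons with featureCounts, leaving out reads of several genes or places, and normalized with DESeq2. Versions in the submitters' processing notes are Trimmomatic 0.39, STAR 2.7.10a, featureCounts 2.0.2 and DESeq2 1.30.1, and the paper names other versions of the last 3. Use of strand in counting is not given in the sources used here. The deposited signal of each gene is its read count, scaled by the library's size factor and rounded by the authors, called normalized count here.

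From these values, limma 3.58.1 (R 4.3.3) was run on log2(normalized count + 1) with moderated variances that follow the mean, for genes of 10 or more normalized counts in 2 or more libraries, two-sided, with Benjamini-Hochberg adjustment over all genes tested and a threshold of 0.05. Intervals are at 95%. Fold changes on this scale understate those of low genes. Depth was read from the spacing of the values in each library. A read was worth 3.87 and 2.55 normalized counts in mitochondria and 0.264 and 0.365 in the rest fraction, so whole counts of the rest libraries could not be restored and no count test was run. Annotation and transcripts came from GENCODE M21, in which 15736 of 15746 identifiers were found. The principal transcript (APPRIS, the longest if several) gave lengths. Near copies were searched with blastn 2.17.0 (at least 95% identity over 50 bases), and kinases were aligned with mafft 7.526. The script was tested on simulated data. The alternatives were other scalings, pseudocounts and filters, a replicate block, each library left out, another gene length for the kinase shares and, chosen after the values were seen, sums with pseudogenes.

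All 10 members are named, with Dld, Pdk3, Pdp2 and Pdpr. From each list, up to 4 genes under the threshold or, if there were none, those at both ends are named. Members and lists were chosen with earlier results of these data known. Python 3.11.15, numpy 2.4.6, pandas 2.3.3 and matplotlib 3.10.9 were used.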

Additional observations from a re-analysis of the deposited data

How the results depend on the processing

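The scaling of the libraries had the largest effect. Scaled to the total without the mitochondrial chromosome, limma called 129 genes higher and 3819 lower, with 0 members in either direction. Of the other pathway genes, 1 was called higher and 7 lower, and the median log2 fold change of the members was -0.19. Scaled to the library total, 2 genes were higher and 12022 lower, 10 members and 45 pathway genes were lower with 0 pathway genes and 0 members higher, and the median was -3.30; the values were -3.23 for Pdha1, -3.05 for Pdhb, -3.75 for Dlat, -3.28 for Pdhx, -3.36 for Pdk1, -3.44 for Pdk2, -3.31 for Pdk4, -3.59 for Pdp1, -2.88 for Mpc1 and -2.58 for Mpc2. With recomputed size factors the median was 0.74. A pseudocount of 0.1 left 0 genes, members or pathway genes called in either direction, while 1694 genes were higher and 1754 lower at an unadjusted p under 0.05. A pseudocount of 10 gave 536 higher and 580 lower genes and 3 pathway genes higher. Without the filter, 630 genes were lower and 2 pathway genes higher. Over the 5556 genes with a mean above 50, 790 were higher and 670 lower, with 5 pathway genes and 3 members higher, Mpc2, Mpc1 (limma adjusted p = 0.0224) and Pdhb (0.0301). The cause of these shifts was not tested.

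The replicate numbers are not stated to pair the samples, and the differences between replicates 1 and 2 had a correlation of 0.13 across genes between the fractions. With the replicate block, 470 genes were higher and 309 lower, 2 pathway genes were higher, and Mpc2 was the only member called (limma adjusted p = 0.0308). Leaving out 1 library gives the remaining library of that fraction the spread of the other fraction. The counts of genes, members and pathway genes called were then 0 to 0 in each direction, against 590 to 2333 genes higher and 468 to 3324 lower at an unadjusted p under 0.05, the median log2 fold change of the members was 0.60 to 0.79, and no member changed sign. The difference between the fractions in the share of Pdk4 was then -7.27 to 10.2 percentage points, that of Pdk2 -8.85 to 5.17 and that of Pdk1 -1.36 to 2.10, each with both signs. With the union of all exons as gene length these differences were 1.75, -1.96 and 0.21. Among the 10 members, depth in mitochondria limited Pdp1 most. Several genes of the lists, Pdk3 among them, had fewer reads there than Pdp1.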
